A study of Mus musculus with 6 samples.

Results

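Ly6d+ cells with a lymphoid gene were studied among lineage-negative (Lin-) haematopoietic stem and progenitor cells of mice with a Stag2 knockout (Stag2 KO, libraries KO1, KO2 and KO3) and of Stag2 wild type mice (Stag2 wt, libraries WT1, WT2 and WT3). A cell was taken when it had at least 500 detected genes, at least 2 unique molecular identifiers (UMIs, each standing for 1 counted transcript) of Ly6d, and at least 1 UMI of Il7r, Rag1, Rag2 or Dntt together. It also had at most 2 UMIs of Siglech, at most 2 of Cd79a, Vpreb3, Ebf1 and Vpreb1 together, and 0 of Cd3d, Cd3e and Cd3g. The rule took 176 of 24307 kept cells (cells with at least 500 genes), of 25636 deposited. The KO libraries held 16, 8 and 16 of them and the WT libraries 24, 32 and 80, where values per library run in the order KO1 to KO3 and WT1 to WT3. STAG2 is part of cohesin, which pairs sister chromatids and extrudes chromatin loops. The design sets progenitors of Stag2 KO mice beside those of Stag2 wild type mice. The labels name the genotype alone: the sources used here give neither how and in which cells Stag2 was deleted nor the age of the mice.

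Ly6d encodes a small surface protein that divides the common lymphoid progenitors of mouse bone marrow. Cells without it keep a wide range of lymphoid fates, and cells with it lean toward the B lineage. Precursors of plasmacytoid dendritic cells, the main producers of type I interferon, also carry Ly6d and then gain Siglech. Il7r encodes the receptor chain for interleukin 7, which early B and T cell progenitors need, Rag1 and Rag2 the recombinase that cuts antigen receptor genes, and Dntt the terminal transferase that adds bases at the cut ends.

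The 6 libraries differed in depth and in the code in their titles. Median UMIs per kept cell were 6048, 5814.5 and 6040.5 in the KO libraries and 4389.5, 5019 and 3659.5 in the WT libraries. The Ly6d+ cells themselves had medians of 5891.5, 4806.5 and 5228 UMIs in the KO libraries and 6597.5, 6123.5 and 4851.5 in the WT libraries. Summed over the Ly6d+ cells, a library held 50817 to 115488 UMIs in KO and 163472 to 456069 in WT, so low genes were measured more coarsely in KO. Pairs of libraries shared 11 to 48 cell barcodes. The title code began with XA in the 3 KO libraries and WT1 and with other letters in WT2 and WT3, and what it marks is not given, so code and genotype can be told apart only through WT1.

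Genes outside the rule were mixed. The rule itself asks for a UMI of Dntt, Il7r, Rag1 or Rag2, so their rates describe which genes let cells in and are no check of the lymphoid label. Of the 176 cells, 134 (76.1%) had a UMI of Dntt, 82 (46.6%) of Il7r, 10 of Rag2 and 4 of Rag1. Flt3, the receptor of the cytokine that drives early lymphoid and dendritic cells, was found in 58.5% of them. Pax5, which maintains B cell identity, was at 0 in every library, and so was Vpreb3, a B lineage gene whose UMIs the rule limits. The genes that led over all other kept cells are given as a description because the cells were chosen on their own counts. Dntt stood at 743 CPM (UMIs of a gene per 1000000 UMIs of the summed cells) against 34.4 CPM in all other kept cells, and Ly6d at 3461 against 234 CPM. Several of the next genes are known from plasmacytoid dendritic cells. Cox6a2, a cytochrome oxidase subunit, stood at 826 against 60.6 CPM, Irf8, a transcription factor of dendritic cells and monocytes, at 1927 against 410 CPM, and Tcf4, which specifies plasmacytoid dendritic cells, at 568 against 117.2 CPM. Runx2 (248 against 50.9 CPM), a transcription factor, and Ighm (896 against 209 CPM), the immunoglobulin mu chain that early lymphoid cells transcribe before recombination, also led. All of these genes were higher in the Ly6d+ cells in all 6 libraries. The cells are therefore called Ly6d+ cells here, by the rule, and not by a cell type.

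Neighbouring classes were set by rules of the same kind. Lymphoid-primed cells had Flt3 and Dntt but no Ly6d UMI (500 cells), Siglech-high cells had at least 3 Siglech UMIs (1309), and B gene cells at least 3 UMIs of the 4 B genes (357), each with the other limits on Siglech, B and CD3 genes kept. The 25 markers of plasmacytoid dendritic cells, without the genes of the rule, summed to a mean of 10326 CPM in the Ly6d+ cells. They summed to 19664 CPM in Siglech-high, 4405 CPM in lymphoid-primed and 6392 CPM in all other kept cells. The 40 lymphoid transcription factors summed to 5966 CPM in Ly6d+, 7974 CPM in Siglech-high, 3427 CPM in lymphoid-primed and 2703 CPM in all other kept cells. The 25 stem and multipotent progenitor markers summed to 842 CPM in Ly6d+, 561 CPM in Siglech-high and 1927 CPM in lymphoid-primed cells. By the mean of each of these 3 lists the Ly6d+ cells lay between the lymphoid-primed and the Siglech-high cells. Other lists did not all do so. The 12 basophil and mast cell markers summed to 2593 CPM in Ly6d+, 1431 CPM in lymphoid-primed and 1517 CPM in Siglech-high cells. The 24 S phase genes summed to 2445, 2080 and 1591 CPM in the same order. The classes were cut on Ly6d and Siglech, so these places only describe them.

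**Figure D1:**
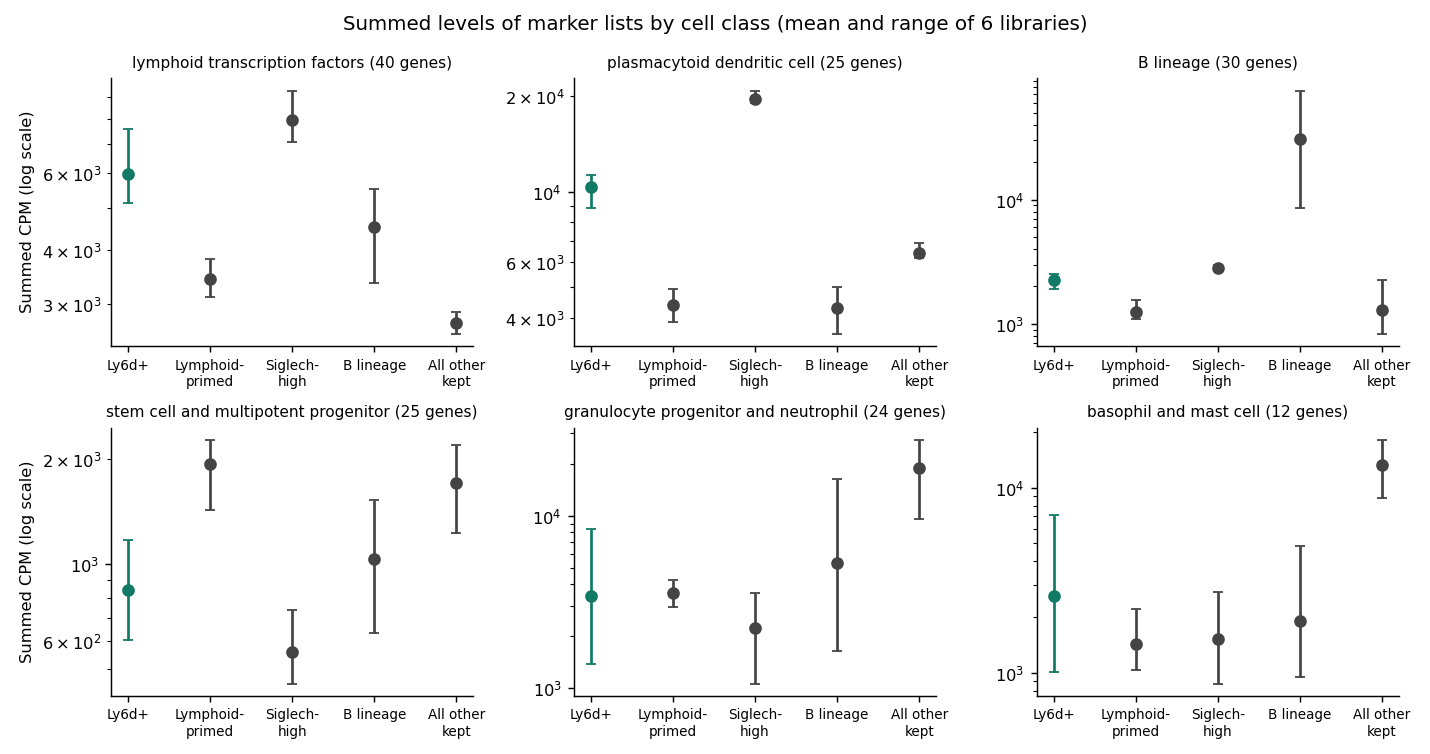
Summed levels of 6 marker lists in CPM (log axis) for the Ly6d+ cells and 4 comparison classes, without the genes of the rule. Points are means and bars the lowest and highest of the 6 libraries; the plasmacytoid list stood at 10326 CPM in Ly6d+ cells, between 4405 CPM in lymphoid-primed and 19664 CPM in Siglech-high cells.

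The deposited cluster numbers divided the Ly6d+ cells. In each library the cluster with the most Siglech-high cells, here the plasmacytoid-rich cluster although Siglech-high cells were 20.8% to 88.3% of it, held 7 of 16, 3 of 8 and 9 of 16 Ly6d+ cells in KO and 14 of 24, 15 of 32 and 42 of 80 in WT. That was 45.8% ± 9.55 of the Ly6d+ cells in KO and 52.6% ± 5.73 in WT (SD, n = 3 each), with the genotypes overlapping. Pooled over WT, the cells inside carried more Bst2 (1882 against 394 CPM outside), an interferon-induced surface protein of plasmacytoid dendritic cells, and more Cd7 (758 against 143 CPM). The cells outside carried more Dntt (1072 against 353 CPM inside), Cd34 (120 against 33.3 CPM), a progenitor surface protein, and Mpo (586 against 63.9 CPM), the myeloperoxidase of granulocyte progenitors. Flt3 was close in both, at 197 CPM inside and 154 CPM outside. The plasmacytoid list summed to 14356 CPM inside and 7364 CPM outside, and the stem and multipotent progenitor list to 555 and 1032 CPM. Clusters are made from expression, so the contrast only describes the 2 sets.

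Ly6d+ cells were a smaller share of the Stag2 KO libraries. They were 0.358%, 0.329% and 0.426% of kept cells in the KO libraries, against 0.976%, 0.725% and 1.18% in the WT libraries. Every KO library lay below every WT library. The means were 0.371% ± 0.0501 in KO and 0.961% ± 0.228 in WT (SD, n = 3 each), 2.59-fold lower in KO. The 2-sided exact permutation test gave p = 0.1, the smallest that 3 against 3 libraries allow, and an adjusted p of 0.15 over 6 share tests. edgeR's quasi-likelihood test on the cell counts of 6 classes, an alternative test, put KO at -1.37 against WT on the log2 scale (adjusted p = 0.00225). Exact 95% binomial intervals, which cover counting error alone, were 0.2045% to 0.580%, 0.142% to 0.647% and 0.244% to 0.692% in the KO libraries. In the WT libraries they were 0.626% to 1.45%, 0.496% to 1.02% and 0.938% to 1.47%. Within counting error WT2 overlapped every KO library, WT1 overlapped KO2 and KO3, and WT3 overlapped none. Shares are of lineage-negative cells, and an effect of that selection cannot be told apart from a change in the marrow.

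The lower share was also seen at equal depth. With each cell thinned to 2000 UMIs and shallower cells left out (577 KO and 2530 WT cells), the rule took 21, 14 and 12 cells in KO and 28, 61 and 78 in WT. Not all of these were Ly6d+ cells before thinning: 28 of 47 in KO and 82 of 167 in WT passed only once thinned. Of those, 25 in KO and 73 in WT were past the Siglech limit before thinning, and each of the others was past the B gene or the CD3 limit. The shares were 0.481% ± 0.136 in KO and 1.46% ± 0.155 in WT (SD, n = 3 each; exact permutation p = 0.1, adjusted p = 0.15), again without overlap. Leaving out the shallower cells widened the gap by itself. Without thinning, the shares among cells of at least 2000 UMIs were 0.392% ± 0.0515 in KO and 1.14% ± 0.416 in WT (SD, n = 3 each). That was 2.92-fold lower in KO, against 2.59-fold among all kept cells. Counting only the cells that passed the rule both before and after thinning, an alternative chosen after the data were seen, the shares were 0.190% ± 0.0436 in KO and 0.709% ± 0.296 in WT (SD, n = 3 each; exact permutation p = 0.1), also without overlap. Among the XA-coded libraries alone, KO1, KO2 and KO3 averaged 0.371% and WT1 stood at 0.976%. The difference was present in both cluster sets: inside the plasmacytoid-rich clusters Ly6d+ cells were 0.173% ± 0.0600 of kept cells in KO and 0.510% ± 0.149 in WT, and outside them 0.198% ± 0.00995 in KO and 0.451% ± 0.0959 in WT (SD, n = 3 each). Neither set overlapped between genotypes.

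**Figure D2:**
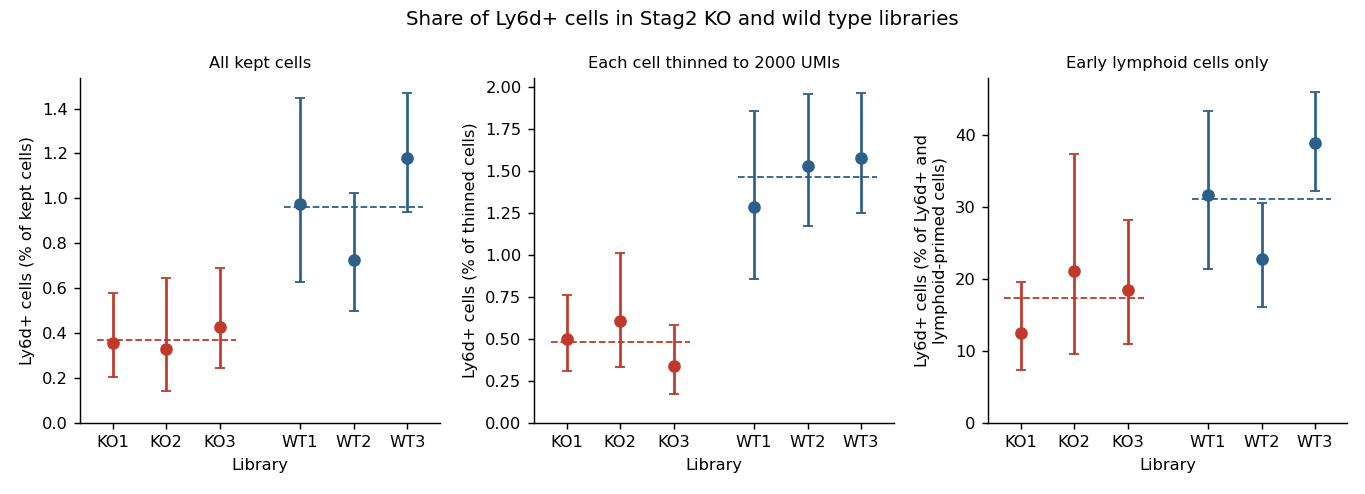
Share of Ly6d+ cells per library among all kept cells, among cells thinned to 2000 UMIs, and among Ly6d+ and lymphoid-primed cells together (percent). Points are libraries with exact 95% binomial intervals and dashed lines are group means; in the first panel the KO libraries lie at 0.329% to 0.426% and the WT libraries at 0.725% to 1.18%.

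Neighbouring classes were compared in the same way. Lymphoid-primed cells were 1.88% ± 0.635 of kept cells in KO and 2.15% ± 0.306 in WT, with overlap (exact permutation p = 0.7, adjusted p = 0.7, n = 3 each). Siglech-high cells were 6.98% ± 1.63 in KO and 4.72% ± 1.58 in WT, with overlap (exact permutation p = 0.2, adjusted p = 0.24, n = 3 each). B gene cells were 0.361% ± 0.140 in KO and 2.44% ± 0.508 in WT, without overlap (exact permutation p = 0.1, adjusted p = 0.15, n = 3 each). Of Ly6d+ and lymphoid-primed cells together, Ly6d+ cells made up 12.5%, 21.1% and 18.4% in the KO libraries and 31.6%, 22.7% and 38.8% in the WT libraries. The groups did not overlap (17.3% ± 4.38 in KO and 31.0% ± 8.08 in WT, exact permutation p = 0.1, adjusted p = 0.15, n = 3 each), though KO2 and WT2 were close. After thinning to 2000 UMIs this fraction overlapped, at 48.4% ± 13.4 in KO and 61.9% ± 2.61 in WT (exact permutation p = 0.3, n = 3 each). Thinned to 3000 UMIs it did not overlap, at 34.96% ± 10.8 in KO and 50.4% ± 4.28 in WT (exact permutation p = 0.1, n = 3 each), with KO2 (47.4%) and WT3 (47.6%) close.

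Seen from Ly6d itself, most Ly6d-bearing cells of the KO libraries were Siglech-high. Cells with 2 or more Ly6d UMIs numbered 261, 208 and 235 in the KO libraries and 258, 439 and 494 in the WT libraries. At least 3 Siglech UMIs were found in 79.2% ± 4.81 of them in KO and 47.4% ± 9.86 in WT. The B genes were past their limit in 4.13% ± 2.47 in KO and 20.7% ± 3.62 in WT, and a CD3 chain was found in 0.969% ± 0.428 in KO and 5.14% ± 1.77 in WT (SD, n = 3 each). The whole rule was passed by 5.59% ± 1.55 in KO and 10.9% ± 4.67 in WT. None of these 4 shares overlapped between genotypes. They use the genes of the rule and are given as a description.

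**Figure D3:**
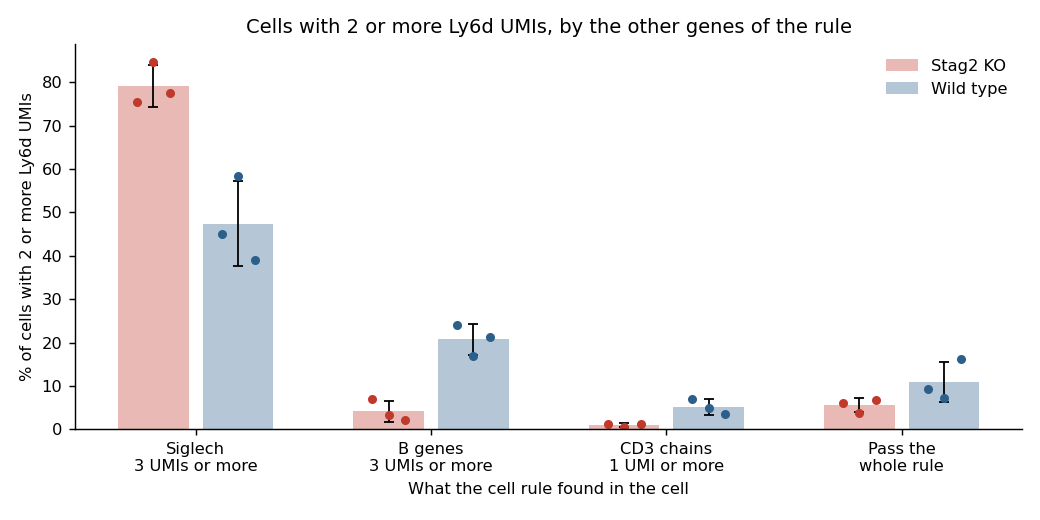
Cells with 2 or more Ly6d UMIs, in percent, by what the other genes of the rule showed in them. Bars are means with SD over 3 libraries and points are libraries, KO left of WT; Siglech was past its limit in 79.2% of such cells in KO and 47.4% in WT, and 5.59% in KO and 10.9% in WT passed the whole rule.

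The limits of the rule fell in sparse and in dense places. The Ly6d limit lay far below the level of most cells, whose median was 13, 17.5 and 12 Ly6d UMIs in KO and 17.5, 25.5 and 17 in WT. At exactly 2 Ly6d UMIs there were 4 cells in KO and 15 in WT, and 56 cells in KO and 74 in WT with 1 UMI would otherwise have passed. With that limit at 1 UMI the share was 0.920% ± 0.101 in KO and 1.56% ± 0.310 in WT (SD, n = 3 each), 1.70-fold lower in KO. Siglech was less clear-cut: 23 Ly6d+ cells in KO and 80 in WT had 1 or 2 Siglech UMIs, and 35 cells in KO and 73 in WT with 3 or 4 UMIs would otherwise have passed. With 3 or more Siglech UMIs, 74, 75 and 58 cells in KO and 55, 126 and 78 in WT failed on that limit alone. Whether the share stays lower in KO with the Siglech limit loosened was not tested. At 3 or 4 UMIs of the B genes, 0 cells in KO and 9 in WT would otherwise have passed. The lymphoid gene limit kept out most cells that met all the others. Before it was applied there were 45, 24 and 49 cells in KO and 76, 105 and 189 in WT. In all that was 118 in KO and 370 in WT, of which 40 and 136 passed. Whether the lower share in KO is particular to cells with a lymphoid gene was not tested.

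The lymphoid genes that let a cell pass were not the same mix in both genotypes. Il7r had 47.4, 39.4 and 17.3 CPM in the KO libraries, against 190, 110 and 123 CPM in the WT libraries. These rest on 5, 2 and 2 UMIs in KO and 31, 30 and 56 in WT. All 3 KO libraries were lower than all WT libraries. An Il7r UMI was found in 8 of 40 Ly6d+ cells in KO and 74 of 136 in WT, or 20.8% ± 7.22 per KO library and 58.6% ± 11.2 per WT library (SD, n = 3 each). Dntt overlapped between the genotypes, with 1156, 551 and 468 CPM in the KO libraries and 691, 771 and 820 CPM in the WT libraries. Dntt alone let in 75.0% ± 12.5 of the Ly6d+ cells in KO and 38.9% ± 8.42 in WT. Rag1 or Rag2 was found in 2 of 40 cells in KO and 12 of 136 in WT. No test is given for these genes, because the rule used them.

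At equal depth an Il7r UMI was found in fewer Ly6d+ cells of both genotypes, since thinning discards UMIs. The part of depth in the Il7r gap was not tested. With Ly6d+ cells thinned to 2000 UMIs, an Il7r UMI was found in 5 of 40 cells in KO and 35 of 133 in WT. Per library that was 6.25% to 25% in KO and 19.4% to 30.4% in WT, with overlap. Basophil gene cells had at least 5 UMIs of Mcpt8, Prss34 and Fcer1a together. In them, thinned alike, the Il7r share was 6.49% ± 0.181 in KO and 5.68% ± 2.62 in WT. The Dntt share was 0.670% ± 0.351 in KO and 1.98% ± 0.543 in WT. Whether these UMIs were free RNA or expression by the basophil gene cells was not tested. Outside the rule's own cells Il7r could be tested. It fell in Siglech-high KO cells (log2 fold change -1.04 ± 0.22 (SE), edgeR adjusted p = 0.0111), and in lymphoid-primed cells it had -1.90 ± 0.49 without passing (edgeR adjusted p = 0.0581).

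Cnn3, which encodes the actin-binding protein calponin 3, was the named gene with a called change. Its level in Ly6d+ cells was 9.47, 0 and 8.66 CPM in the KO libraries, against 141, 143 and 184 CPM in the WT libraries. The KO libraries held 1, 0 and 1 UMIs of it and the WT libraries 23, 39 and 84, and no WT library came near the KO range. A Cnn3 UMI was found in 2 of 40 Ly6d+ cells in KO (exact 95% binomial interval 0.611% to 16.9%) and 68 of 136 in WT (41.3% to 58.7%). At 2000 UMIs a cell it was found in 0 of 40 in KO and 35 of 133 in WT, beside 0.273% of basophil gene cells in KO and 3.58% in WT. The log2 fold change, KO over WT, was -4.33 ± 0.56 (SE), with an adjusted p of 0.00195 in edgeR's quasi-likelihood test over 1858 genes. It was lower in KO in both cluster sets, with 0 UMIs inside and 2 outside the plasmacytoid-rich clusters in KO and 61 and 85 in WT. Among XA-coded libraries the fold change was -4.15 and did not pass (edgeR adjusted p = 0.163), with WT1 the sole WT library.

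Cnn3 also fell in the other classes. In edgeR its log2 fold change was -2.61 in lymphoid-primed (adjusted p = 7.38e-07), -3.83 in Siglech-high (2.59e-07) and -3.67 in all other kept cells (1.98e-07). The tests of the difference did not pass, with -1.92 ± 0.89 against lymphoid-primed cells (edgeR adjusted p = 0.899) and -0.98 ± 1.06 against all other kept cells (0.970). In WT the gene stood at 156 CPM in Ly6d+, 90.3 CPM in lymphoid-primed, 94.3 CPM in Siglech-high and 27.3 CPM in all other kept cells.

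The windows at the RefSeq start of Cnn3, Il7r and Dntt are shown because Cnn3 is the named gene with a called change and Il7r and Dntt are the rule genes that let most cells in. Each runs from 250 bases before to 50 after the RefSeq start (GRCm38.p6), 5′ to 3′ on the gene's strand, at chr3:121426291-121426590 (plus strand) for Cnn3, chr15:9529827-9530126 (minus strand) for Il7r and chr19:41029025-41029324 (plus strand) for Dntt. Capitals mark matches to 3 motifs, sought on both strands.
Cnn3: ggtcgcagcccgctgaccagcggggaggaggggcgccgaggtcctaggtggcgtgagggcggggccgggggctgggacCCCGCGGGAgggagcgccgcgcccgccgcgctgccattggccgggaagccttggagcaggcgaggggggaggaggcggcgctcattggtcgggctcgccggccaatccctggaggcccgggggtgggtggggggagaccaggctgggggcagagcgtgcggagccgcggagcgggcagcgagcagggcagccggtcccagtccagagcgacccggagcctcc
Il7r: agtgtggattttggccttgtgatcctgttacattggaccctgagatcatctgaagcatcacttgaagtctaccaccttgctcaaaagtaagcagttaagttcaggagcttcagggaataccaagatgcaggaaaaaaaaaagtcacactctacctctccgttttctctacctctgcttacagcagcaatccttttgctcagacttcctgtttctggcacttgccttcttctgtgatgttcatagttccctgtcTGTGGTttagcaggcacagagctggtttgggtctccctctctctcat
Dntt: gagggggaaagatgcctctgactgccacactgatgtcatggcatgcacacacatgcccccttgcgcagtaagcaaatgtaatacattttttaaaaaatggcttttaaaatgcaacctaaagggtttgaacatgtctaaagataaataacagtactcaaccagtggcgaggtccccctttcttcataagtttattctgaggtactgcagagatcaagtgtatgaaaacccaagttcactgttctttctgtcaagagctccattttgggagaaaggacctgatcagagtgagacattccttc
The motifs were CAGGTG, the E-box type bound by E2A, TGTGGT, bound by Runx factors, and CCCNNGGGA, bound by Ebf1. They occur in 20.2%, 16.8% and 6.6% of the 32851 windows of the same length in the RefSeq table. Cnn3 had 1 match to CCCNNGGGA, Il7r 1 match to TGTGGT, and Dntt none, and no matches overlapped. CpG pairs numbered 33 in Cnn3, 1 in Il7r and 2 in Dntt, where the median over all windows was 7. The gene bodies lie at chr3:121426497-121458207 (Cnn3), chr15:9505788-9530176 (Il7r) and chr19:41029275-41059525 (Dntt) in GENCODE M21. The whole Il7r window lies inside the GENCODE gene body, since its RefSeq start is downstream of the GENCODE start. The RefSeq start of Cnn3 also lies inside the gene body, and that of Dntt is the GENCODE start.

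Few genes passed. edgeR called 2 of 1858 tested genes (0.108%), both lower in KO: Cnn3 and a predicted gene that the naming rule leaves out. At an unadjusted p under 0.05 there were 130 genes (7%), 58 higher (3.12%) and 72 lower (3.88%), and the genotypes did not overlap in 216 (11.6%). DESeq2 called 3 genes. In the same test 58 genes (0.894%) passed in lymphoid-primed and 361 (4.7%) in Siglech-high cells.

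The genes next in order of p were chosen after their values were seen, and none of them passed in edgeR with all 6 libraries under the settings used throughout. Clec2i, the lectin ligand Clr-g of natural killer cell receptors, had 360, 275 and 77.9 CPM in KO and 18.4, 18.3 and 65.8 CPM in WT. All KO libraries were higher, though KO3 and WT3 were close. KO exceeded WT by 2.48 ± 0.53 (log2, SE, edgeR adjusted p = 0.120), and it was found in 20 of 40 cells in KO and 22 of 136 in WT. DESeq2 called it (adjusted p = 0.00160), and edgeR did so without KO3 (0.00828), WT1 (0.0369) or WT3 (0.00127). edgeR also called it in all 6 libraries with likely doublets removed (0.0407), with Ly6d at 1 UMI (0.0107) and with no low-count filter (6.07e-07). It did not pass without KO1 (edgeR adjusted p = 0.663), KO2 (0.243) or WT2 (0.185), or with the XA code as a covariate (0.207). Nor did it with RLE factors (0.113), Ly6d at 3 UMIs (0.0577), at least 1000 genes (0.0929) or at least 2000 UMIs (0.110). Among XA-coded libraries alone the log2 fold change was 3.49, with WT1 the sole WT library. In WT1 a single cell held all 3 of the Clec2i UMIs. Ccl9, a chemokine, had 133, 138 and 147 CPM in KO and 42.8, 25.6 and 41.7 CPM in WT (1.90 ± 0.37, edgeR adjusted p = 0.0715). It passed with Ly6d at 1 UMI (edgeR adjusted p = 0.0311) and with no low-count filter (0.0154). In the KO libraries a single cell held 9 of 14, 6 of 7 and 14 of 17 of the Ccl9 UMIs, so the level rests on few cells. Basophil gene cells express Ccl9 at 942 CPM in KO and 892 CPM in WT, and 3 Ly6d+ cells in KO and 24 in WT also met the basophil gene rule. The part of such cells in the Ccl9 level was not tested.

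Ly6c2, Gm2a and Cox6a2 had lower values in KO and did not pass. Ly6c2, a Ly6 surface protein next to near-identical Ly6c1, had 152, 157 and 147 CPM in KO and 251, 347 and 522 CPM in WT (log2 fold change -1.34 ± 0.29 (SE), edgeR adjusted p = 0.123). The groups did not overlap, but reads of the 2 paralogs may be shared. The share of thinned cells with a Ly6c2 UMI was 31.2% ± 10.8 in KO and 34.0% ± 2.04 in WT. A single cell held 4 of 16, 5 of 8 and 7 of 17 of the Ly6c2 UMIs in the KO libraries. In the WT libraries a single cell held 10 of 41, 22 of 95 and 76 of 238. Gm2a, the activator protein that presents GM2 ganglioside to its lysosomal enzyme, had 47.4, 98.4 and 43.3 CPM in KO and 196, 154 and 143 CPM in WT (-1.52 ± 0.37, edgeR adjusted p = 0.195). Cox6a2 had 578, 512 and 675 CPM in KO and 960, 1170 and 1061 CPM in WT (-0.85 ± 0.21, edgeR adjusted p = 0.195). For each of these genes the KO libraries lay below the WT libraries. In lymphoid-primed cells Gm2a (-0.90, edgeR adjusted p = 0.0462) and Cox6a2 (-1.34, 2.09e-04) fell.

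**Figure D4:**
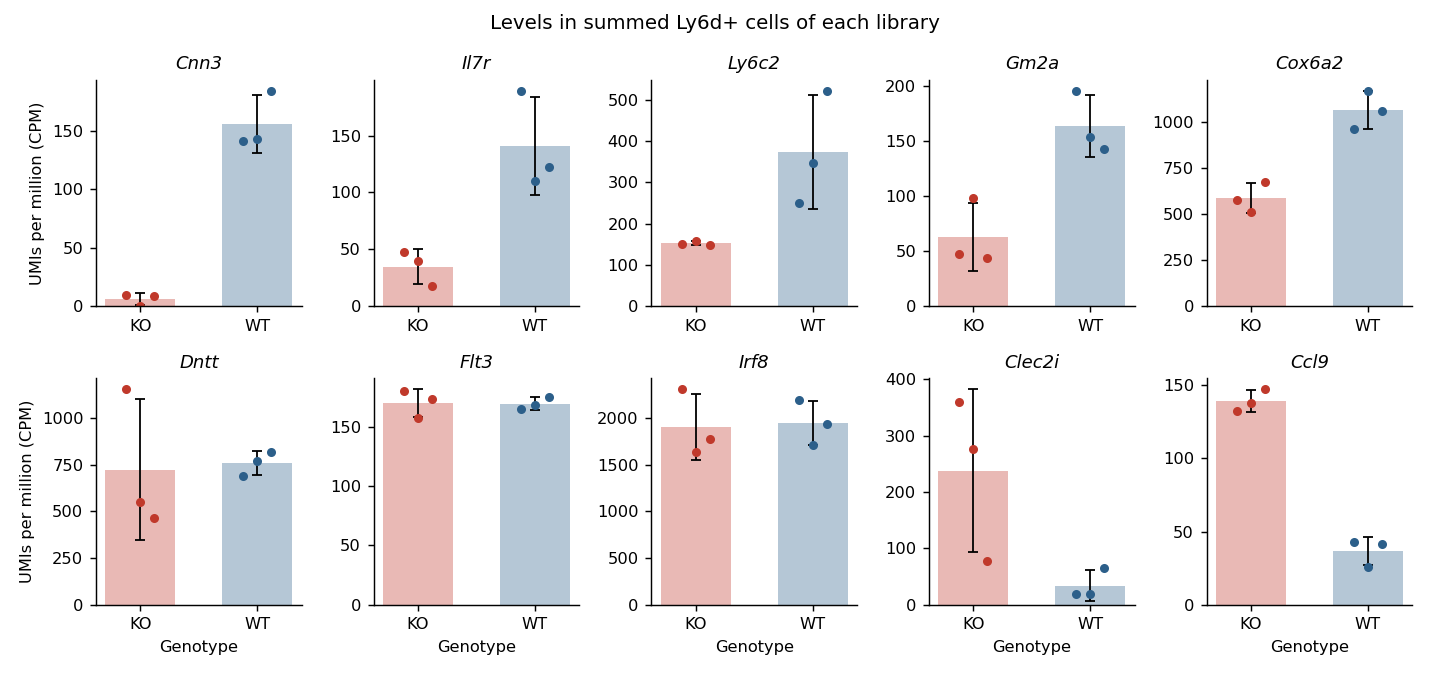
CPM of 10 genes in the summed Ly6d+ cells of each library, KO left of WT. Bars are means with SD over 3 libraries and points are libraries; Cnn3 lies at 0 to 9.47 CPM in KO and 141 to 184 CPM in WT, while Flt3 and Irf8 overlap. Il7r and Dntt belong to the rule.

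**Figure D5:**
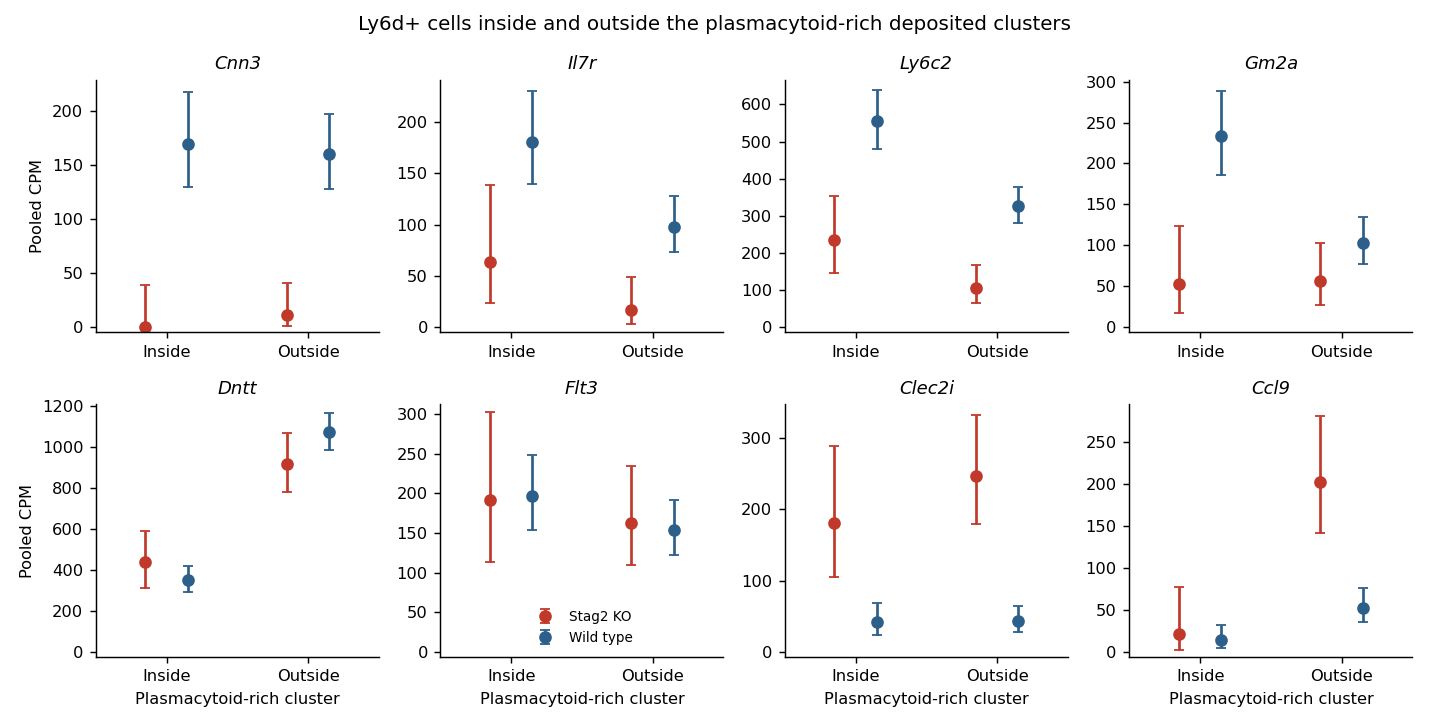
Pooled CPM of 8 genes in Ly6d+ cells inside and outside the plasmacytoid-rich deposited clusters (19 and 21 cells in KO, 71 and 65 in WT). Bars are 95% Poisson intervals, which cover counting error alone; Cnn3 stood at 0 and 11.2 CPM in KO and at 169 and 160 CPM in WT.

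Within the 2 cluster sets several of these differences ran the same way. Clec2i stood at 181 CPM inside and 247 CPM outside in KO, against 41.6 and 43.2 CPM in WT. Ccl9 was at 21.3 CPM inside and 202 CPM outside in KO, against 13.9 and 52.5 CPM in WT, so most of its signal in KO came from cells outside the plasmacytoid-rich clusters. Inside them Ccl9 rests on 2 UMIs in KO and 5 in WT, with overlapping Poisson intervals (2.57 to 76.8 CPM in KO and 4.51 to 32.4 CPM in WT). Il7r was at 63.8 CPM inside and 16.9 CPM outside in KO, the second from 3 UMIs, and at 180 and 97.6 CPM in WT. Gm2a inside was at 53.2 CPM in KO and 233 CPM in WT, and outside the 95% Poisson intervals overlapped (27.0 to 103 CPM in KO and 77.8 to 134 CPM in WT). These values pool libraries and carry no test.

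Receptors, signalling genes and transcription factors of lymphoid cells did not pass in either direction. Of 24 early lymphoid receptors and surface proteins, which summed to 3315 to 3562 CPM in KO and 3579 to 4618 CPM in WT, 12 were tested, 6 with fold changes above 0 and 6 below, where 49.7% of all tested genes lay above 0. Flt3 was nearly equal, with 180, 157 and 173 CPM in KO and 165, 168 and 175 CPM in WT (0.01 ± 0.23, edgeR adjusted p = 0.999). Cd27, a costimulatory receptor of lymphoid progenitors, had 246, 177 and 234 CPM in KO and 85.6, 146 and 180 CPM in WT (0.62 ± 0.27, edgeR adjusted p = 0.674). The groups overlapped through KO2 and WT3. Cd52, a surface glycoprotein of lymphocytes, had 199, 335 and 390 CPM in KO and 587, 508 and 667 CPM in WT, without overlap (-0.95 ± 0.26, edgeR adjusted p = 0.325). Of 25 genes of interleukin 7 and Flt3 signalling 6 were tested, and of 14 DNA end joining genes 4, and none passed. Of 23 interleukin and chemokine receptors 3 were tested, with Il21r, the interleukin 21 receptor, at 0.81 ± 0.35 (edgeR adjusted p = 0.674).

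Of 40 lymphoid transcription factors 16 were tested, 11 with fold changes above 0, and their median log2 fold change was 0.26 where that of all tested genes was 0.00. Satb1, a chromatin organiser of lymphoid cells, had 388, 177 and 190 CPM in KO and 196, 91.4 and 92.1 CPM in WT (1.17 ± 0.35, edgeR adjusted p = 0.340), with overlap through WT1. Sox4, a factor of early B and T cell progenitors, had 843, 630 and 450 CPM in KO and 355, 409 and 392.5 CPM in WT (0.72 ± 0.25, edgeR adjusted p = 0.489). Myb, a factor of progenitors, had 237, 216 and 139 CPM in KO and 104, 113 and 134 CPM in WT (0.68 ± 0.27, edgeR adjusted p = 0.625). Sox4 and Myb did not overlap between the groups. Klf2, a factor of quiescent lymphocytes, lay below WT in every KO library (-0.73 ± 0.33, edgeR adjusted p = 0.708). Ikzf1, Ikaros (-0.18), Spi1, PU.1 (-0.08), and Tcf3, which encodes E2A (-0.16), had log2 fold changes near 0 (edgeR adjusted p = 0.967, 0.999 and 0.974). Foxo1 and Id2 did not pass the low-count filter, with 16 and 52 UMIs in all.

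The cohesin genes had few UMIs in Ly6d+ cells. Stag2, on chromosome X, had 5, 2 and 5 UMIs (47.4, 39.4 and 43.3 CPM) in the KO Ly6d+ cells and 20, 12 and 22 UMIs (122, 43.9 and 48.2 CPM) in the WT Ly6d+ cells. The groups overlapped, since WT2 lay below KO1. Stag2 did not pass the low-count filter, and without that filter KO differed from WT by -0.73 ± 0.50 (log2, SE, edgeR adjusted p = 0.879). In all other kept cells it fell (-1.05, edgeR adjusted p = 5.15e-04). The library reads transcript 3' ends, and these counts do not measure intact transcript. Stag1, the alternative subunit, had 47.4, 0 and 52.0 CPM in KO and 12.2, 36.6 and 57.0 CPM in WT. Of the 18 cohesin and Ctcf genes 4 were tested and none passed.

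Plasmacytoid dendritic cell genes overlapped between the genotypes when summed. The 25 markers summed to 10078 to 10902 CPM in the KO libraries and 8873 to 11274 CPM in the WT libraries, and of 14 tested none passed. Tcf4 (0.44 ± 0.24), Bst2 (0.37 ± 0.21), Runx2 (0.54 ± 0.31) and Irf8 (-0.04 ± 0.18) had edgeR adjusted p of 0.776 to 0.999. Tyrobp, the adaptor DAP12, had 2756, 2893 and 2745 CPM in KO and 2294, 1448 and 1940.5 CPM in WT, without overlap (0.55 ± 0.17, edgeR adjusted p = 0.394).

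Conventional dendritic cell, monocyte and MHC class II genes summed to lower levels in KO. The 20 dendritic cell and monocyte markers summed to 1928 to 2226 CPM in KO and 3006 to 3468 CPM in WT. All 6 tested genes lay below 0 with none called, where 49.7% of all tested genes lay above 0. Ms4a6c, a membrane protein of myeloid cells (-1.30 ± 0.38, edgeR adjusted p = 0.325), and Fcer1g, the Fc receptor gamma chain (-0.56 ± 0.22, 0.610), did not overlap between the groups. The 10 MHC class II genes, which present antigen to helper T cells, summed to 511 to 563 CPM in KO and 680 to 941 CPM in WT, with 3 tested and none called. H2-DMa, which loads peptide onto class II (-0.71 ± 0.28, edgeR adjusted p = 0.610), did not overlap, and Cd74, the invariant chain (-0.93 ± 0.42, 0.708), did. In Siglech-high cells the first list stood at 4958 CPM and the second at 4232 CPM, and the part of such cells in these sums was not tested.

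Markers of other lineages gave no call apart from Cnn3, which the B lineage list holds. Of 30 B lineage genes 7 were tested, 1 fell and 0 rose. The list summed to 1922 to 2387 CPM in KO and 2179 to 2520 CPM in WT, with overlap, and 3 of its genes were at 0 in all Ly6d+ cells, Pax5 and Vpreb3 among them. The 24 granulocyte markers summed to 2320 to 8347 CPM in KO and 1386 to 4420 CPM in WT. All 10 tested had fold changes above 0 with none called, where 49.7% of all tested genes lay above 0. A single cell held 152 of 177 UMIs of Prtn3, a neutrophil granule protease, in KO3 and 131 of 244 in WT3. The 12 basophil and mast cell markers summed to 1013 to 7122 CPM in KO and 1075 to 3883 CPM in WT, with 4 tested and none called. One cell held 419 of 432 Prss34 UMIs of KO1 and another 577 of 683 in WT3. At least 1 UMI was nonetheless found in 68.75% of all Ly6d+ cells for Prss34 and in 63.1% for Mcpt8. Ly6d+ cells outside the basophil gene rule were 0.347% ± 0.0463 of kept cells in KO and 0.791% ± 0.145 in WT. These shares did not overlap (SD, n = 3 each, exact permutation p = 0.1), and this alternative was chosen after the data were seen. Among the cells with the highest simulated-doublet scores were 3 Ly6d+ cells in KO and 6 in WT. The 25 T lineage markers summed to 407 to 589 CPM in KO and 581 to 1083 CPM in WT, with overlap, 3 tested and none called, and Cd7 at -0.76 ± 0.37 (edgeR adjusted p = 0.734).

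Cell cycle genes did not pass either. Of 24 G2/M genes 7 were tested, 6 of them with fold changes below 0. Kif23, a kinesin of cell division, had 28.4, 0 and 26.0 CPM in KO and 110, 106 and 76.7 CPM in WT (-2.08 ± 0.55, edgeR adjusted p = 0.273), and Cenpa, the centromeric histone, had 94.7, 0 and 60.6 CPM in KO and 116, 146 and 208 CPM in WT (-1.41 ± 0.43, 0.349). Neither overlapped between the groups. The G2/M list as a whole overlapped, at 531 to 2044 CPM in KO and 1022 to 2117 CPM in WT. Of 24 S phase genes 12 were tested, 5 with fold changes above 0 and 7 below. Adgrg1, an adhesion receptor of stem cells, had 94.7, 118 and 173 CPM in KO and 48.9, 65.8 and 50.4 CPM in WT (1.24 ± 0.36, edgeR adjusted p = 0.325). It rose in lymphoid-primed cells (0.76, edgeR adjusted p = 0.00266). Of 24 ribosomal protein and 13 mitochondrially encoded genes, 24 and 11 were tested and none passed, and the mitochondrial genes summed to 33425 to 45201 CPM in KO and 33916 to 35988 CPM in WT, with overlap.

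The effect of genotype in Ly6d+ cells was set against that in lymphoid-primed cells in 1 fit with a term for each library. It differed for 3 of 4887 genes (0.0614%), and 259 genes (5.3%) had an unadjusted p under 0.05. Ly6c2 had a difference of -1.97 ± 0.36 (SE, log2, edgeR adjusted p = 0.00619): the lymphoid-primed cells had 81.9, 54.2 and 20.8 CPM in KO and 32.0, 20.6 and 49.9 CPM in WT, with a fold change of 0.66 that did not pass (edgeR adjusted p = 0.610). The call ended without KO1 (-1.29, edgeR adjusted p = 0.720) and without KO2 (-1.98, 0.107). Rab11fip2, a protein of recycling endosomes (2.88 ± 0.63, edgeR adjusted p = 0.0457), and Serpina3g, a serine protease inhibitor of a gene family with close copies (4.06 ± 0.89, 0.0457), rested on 34 and 15 UMIs in all Ly6d+ cells. Rab11fip2 passed in none of the fits that left out 1 library (edgeR adjusted p from 0.0602 to 0.394), and Serpina3g did not pass without KO2 (0.385), KO3 (0.334), WT1 (0.0709) or WT3 (0.654). Their levels in Ly6d+ cells averaged 77.8 and 49.6 CPM in KO and 13.8 and 3.17 CPM in WT.

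Against all other kept cells the effect of genotype differed for 12 of 11417 genes (0.105%), 6 higher and 6 lower, and 592 genes (5.19%) had an unadjusted p under 0.05. The median difference over all these genes was -0.20 (log2), and -0.06 with RLE factors in place of TMM, which called 18 genes, 14 higher and 4 lower. Ccl9 had a difference of 1.75 ± 0.35 (SE, log2, edgeR adjusted p = 0.00139). All other kept cells stood at 564 CPM in KO and 580 CPM in WT. Hsp90ab1, a cytosolic chaperone (-0.76 ± 0.17, edgeR adjusted p = 0.0136), and Dynll1, a dynein light chain (-0.88 ± 0.22, 0.0413), had no called change in either set. Clec2i, named after its values were seen, differed by 1.67 ± 0.37 (edgeR adjusted p = 0.0112), and it rose in all other kept cells as well (0.57, edgeR adjusted p = 0.00685). The call for Ccl9 ended without KO3 (edgeR adjusted p = 0.0697) or WT2 (0.198), and that for Clec2i without KO1 (0.986), WT1 (0.217) or WT2 (0.659). For Hsp90ab1 it ended with RLE factors (-0.62, edgeR adjusted p = 0.130) and without KO3 (0.0697), WT1 (0.0687), WT2 (0.717) or WT3 (0.243). For Dynll1 it ended with RLE factors (-0.74, edgeR adjusted p = 0.204) and without KO1 (0.0618), KO2 (0.290), WT1 (0.0937), WT2 (0.362) or WT3 (0.809).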

How the data were processed

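Single cells of 3 Stag2 KO and 3 Stag2 wt libraries were profiled with the 10x Chromium 3' kit, version 2, per the labels' protocols. The authors deposited UMI counts per cell and gene with a cluster number per cell, and the values are whole numbers. The aligner, genome build and cell filter were not given in the sources used here. Replicate numbers follow accession order and pair nothing, and the labels do not say whether libraries came from separate mice, so p-values measure the spread between these libraries, which may be technical. Members and gene lists were chosen with earlier results of these data known. Counts were summed per library and class and tested with edgeR 4.0.16 (R 4.3.3) by the quasi-likelihood test with TMM factors, filterByExpr, and Benjamini-Hochberg adjustment at 0.05. The difference between classes was an interaction term with a term per library. Shares were compared with 2-sided exact permutation tests over 20 assignments. On simulated data with 1824 genes the test of Ly6d+ cells recovered 99.0% of 96 genes changed by 2 log2 units. Changed genes were drawn from better expressed genes only, with 98 more changed by 3 log2 units at the same time. Recovery of low genes, or with few changed genes, was not tested, so the figure does not give the power here. Doublets stayed in, and an alternative removed the cells with the highest simulated-doublet scores (320 in KO, 571 in WT). Intervals cover counting error alone. Named genes were up to 12 called genes in each direction that did not overlap between genotypes and averaged at least 20 CPM (predicted genes left out), up to 4 genes with the smallest p in each of 24 lists (486 genes), a few fixed genes such as Stag2 and Flt3, up to 4 genes in each direction of the difference tests, and the 15 leading genes of at least 100 CPM. Of 18011 symbols, 17438 matched GENCODE M21 names. Promoters came from the RefSeq table (GRCm38.p6), which held 5 of 6 genes looked for. Alternatives covered the Ly6d, Siglech and B gene limits, detected genes, UMIs, doublets, scaling, filter, title code, DESeq2 1.42.0 and each library left out. The Siglech and B gene limits were only tightened, to 0.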

Additional observations from a re-analysis of the deposited data

Results flagged for a closer look

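The genotype effect in Ly6d+ cells differed from that in another class, by an interaction test, for 7 named genes. Against lymphoid-primed cells the log2 differences were 2.88 for Rab11fip2, 4.06 for Serpina3g and -1.97 for Ly6c2. Against all other kept cells they were 1.75 for Ccl9, 1.67 for Clec2i, -0.76 for Hsp90ab1 and -0.88 for Dynll1. Rab11fip2 and Serpina3g rest on 34 and 15 UMIs, and Serpina3g was found in 7 of the 176 Ly6d+ cells. For Ccl9 a single cell held 9 of 14, 6 of 7 and 14 of 17 UMIs in the KO libraries. Each of the 7 calls ended without at least 1 library.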

How the results depend on the processing

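The lower share of Ly6d+ cells in KO kept its direction under every alternative run. No alternative loosened the Siglech limit, which alone kept out 207 cells in KO and 259 in WT. Among unthinned kept cells the log2 ratios ran from -1.69 (at least 1000 genes) to -0.76 (Ly6d at 1 UMI). edgeR on cell counts gave -1.37 and passed. Leaving out 1 library gave -1.54 to -1.20, thinned to 2000 UMIs -1.81 to -1.40, and among early lymphoid cells -1.02 to -0.65. Thinned to 3000 UMIs the share gave -1.84. Cells that passed before and after thinning gave -1.90 at 2000 UMIs and -2.05 at 3000 UMIs. Among early lymphoid cells the thinned ratio was -0.36 at 2000 UMIs, with overlap, and -0.53 at 3000 UMIs. No paired analysis was possible because the replicate numbers are accession order and pair no libraries. The number of genes called in Ly6d+ cells was 52 with Ly6d at 1 UMI, 0 of 684 with Siglech and B genes at 0 (edgeR, 27 at an unadjusted p under 0.05), 1 with the XA code as a covariate, 1 in thinned cells, 47 with no low-count filter, 15 among XA libraries (0 of them shared with the 2 genes called in all libraries), 3 with DESeq2, and 1 to 10 with 1 library left out. With 1 library left out, calls of a difference numbered 0 (without KO2) to 7 against lymphoid-primed cells and 2 (without WT2) to 16 against all other kept cells, where RLE factors gave 18. Cnn3 kept its direction in all fits that tested it and lost its call among XA libraries alone. Genes near 0 changed sign. With Ly6d at 1 UMI, Flt3 was -0.64, Tcf4 -0.27, Bst2 -0.30, Runx2 -0.20 and Spi1 0.14. With Ly6d at 3 UMIs, Flt3 was -0.086 and Spi1 0.054, and with no filter Flt3 was -0.19. Among XA libraries Flt3 was -0.017, Runx2 -0.14 and Tcf3 0.00031, and with the XA covariate Runx2 was -0.13 and Tcf3 0.031. Irf8 was 0.10 with likely doublets removed and 0.021 in thinned cells. With 1 library left out, Flt3 ran from -0.019 to 0.025, Irf8 from -0.19 to 0.075 and Ikzf1 from -0.46 to 0.088. The cause was not tested. With 40 Ly6d+ cells in KO, low genes such as Stag2 were not resolved at this depth.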
